A study of Mus musculus with 9 samples.

Results

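The 43 genes examined here encode the proteins that mark replication origins, load and activate the replicative helicase, copy DNA at the fork and restore chromatin behind it. All probe sets annotated to them were taken by gene symbol from the deposited array table, whatever their values. The genes themselves were chosen with earlier results of these data known. A named probe set was found for 40 of the 43 genes, out of 12394 genes in the whole table. These 40 genes had 72 probe sets, of which 67, at least 1 per gene, exceeded the threshold for dim signals. Gins2, Gins3 and Chaf1a were not analysed here.

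RNA came from 3 kinds of sorted mouse blood-forming cell, each on 3 Affymetrix arrays. GMP are normal granulocyte-macrophage progenitors of the bone marrow, the precursors of granulocytes and macrophages. L-GMP, isolated from the marrow of leukemic mice, resemble GMP, and the study started the leukemia with the MLL-AF9 fusion gene. The third kind, called L-GMP-derived or derived cells here, was read as the cells grown in culture from L-GMP, because the design text lists cultured cells of this origin and the arrays carry a code and the source L-GMP as their only labels. That reading limits every statement about them. The sources used here give no strain, age, sex, sort markers or culture conditions. Whether a group's 3 arrays stand for different animals or cultures is unstated, so p-values measure the spread between arrays, which may be technical. Across probe sets, derived replicate 1 correlated with its group's other arrays at 0.958 and 0.964, and those with each other at 0.989, so results are also given without it.

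Replication starts when the origin recognition complex (Orc1 to Orc6) binds DNA in G1 and, with Cdc6 and Cdt1, loads the ring of Mcm2 to Mcm7 around it. Entry into S phase turns this ring into an active helicase through the kinase Cdc7-Dbf4 and the factors Mcm10, Cdc45 and GINS. Polymerase alpha-primase then lays down primers, polymerases epsilon and delta extend them on the sliding clamp PCNA, and Fen1 and Lig1 join the lagging-strand pieces. Many of these genes are known targets of E2F transcription factors and are transcribed around the start of S phase. Bone marrow progenitors and leukemia cells both divide, so all 3 kinds of cell use this machinery.

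Promoter sequences were searched for the recognition letters of E2F. RefSeq windows of 300 bases on GRCm38.p6, from 250 bases before to 50 after each annotated start, were held for 35 of the 43 genes, in 44 windows. The 4 forms TTTCCCGC, TTTGGCGC, TTTCGCGC and TTTGCCGC were searched on both strands, and matches may overlap. At least 1 form was present in 13 of 44 windows (29.5%), against 744 of 32851 windows of all genes (2.26%). The CCAAT box, searched as CCAAT and ATTGG, was present in 24 of the 44 windows (54.5%), against 37.4% of all windows. A match is a description of the letters and not of binding.

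Windows of 5 genes named in the results below are shown as examples, with E2F forms in capitals. Mcm3 (chr1:20820263-20820562, minus strand), Mcm5 (chr8:75109259-75109558, plus strand) and Mcm6 (chr1:128359656-128359955, minus strand) encode subunits of the helicase ring. Pola1 (chrX:93632106-93632405, minus strand) was, by brightest probe sets, the gene lowest relative to GMP in L-GMP, and Pold2 (chr11:5878207-5878506, minus strand) differed most between L-GMP and derived cells by the same measure.
Mcm3: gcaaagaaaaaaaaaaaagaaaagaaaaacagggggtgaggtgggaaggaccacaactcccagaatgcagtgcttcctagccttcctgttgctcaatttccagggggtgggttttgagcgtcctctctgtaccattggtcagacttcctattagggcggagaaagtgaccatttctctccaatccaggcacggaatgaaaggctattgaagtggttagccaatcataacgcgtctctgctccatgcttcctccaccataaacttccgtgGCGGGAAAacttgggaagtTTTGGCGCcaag
Mcm5: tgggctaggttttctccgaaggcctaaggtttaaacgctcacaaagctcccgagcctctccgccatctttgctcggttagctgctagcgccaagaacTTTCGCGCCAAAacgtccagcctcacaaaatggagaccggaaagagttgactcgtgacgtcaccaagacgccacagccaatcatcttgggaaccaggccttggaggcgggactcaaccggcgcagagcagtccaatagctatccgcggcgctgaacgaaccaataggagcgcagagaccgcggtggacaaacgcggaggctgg
Mcm6: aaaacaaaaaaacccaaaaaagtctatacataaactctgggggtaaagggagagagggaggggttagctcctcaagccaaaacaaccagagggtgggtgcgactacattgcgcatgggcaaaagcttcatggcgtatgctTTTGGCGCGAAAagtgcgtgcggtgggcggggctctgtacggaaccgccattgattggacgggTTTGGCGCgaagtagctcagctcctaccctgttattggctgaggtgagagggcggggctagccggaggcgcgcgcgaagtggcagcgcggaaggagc
Pola1: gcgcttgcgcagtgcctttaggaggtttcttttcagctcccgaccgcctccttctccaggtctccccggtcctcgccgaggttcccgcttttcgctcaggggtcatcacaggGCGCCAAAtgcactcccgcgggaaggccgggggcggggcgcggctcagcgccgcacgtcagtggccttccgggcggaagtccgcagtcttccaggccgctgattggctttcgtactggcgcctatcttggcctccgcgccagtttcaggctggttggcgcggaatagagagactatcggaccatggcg
Pold2: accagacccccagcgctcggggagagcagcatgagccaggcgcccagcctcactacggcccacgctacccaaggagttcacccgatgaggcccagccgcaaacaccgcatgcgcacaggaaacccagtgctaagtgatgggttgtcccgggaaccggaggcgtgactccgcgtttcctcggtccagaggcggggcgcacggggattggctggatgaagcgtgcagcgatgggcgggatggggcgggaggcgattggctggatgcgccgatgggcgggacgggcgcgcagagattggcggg
The Mcm3 window held 2 forms, 1 on each strand. In the Mcm5 window 2 forms overlap in a single run of capitals, and the Mcm6 window held 3, of which 2 overlap. Not all ring genes were alike: the Mcm2 window, not shown, held 0, and the Mcm7 windows, not shown, held 0 and 2. Pola1 had 1, and the Pold2 window shown had none of these letters. Among the genes with both a promoter window and a signal, 12 had a form and 21 had none. In L-GMP against GMP, 1 of the 12 and 6 of the 21 passed the test described below, where 25.9% of all genes did. In derived cells against GMP it was 2 of the 12 and 3 of the 21 (24.1% of all genes), and in derived cells against L-GMP 2 of the 12 and 10 of the 21 (30.7% of all genes).

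In L-GMP, 3 of 6 genes of helicase activation and 3 of 7 polymerase and primase genes were lower than in GMP by the test. By their brightest probe sets, 0 of the 6 genes of the helicase ring were called. At an unadjusted p under 0.05 (limma) there was 1 ring gene, and there were 19 among all 40 genes. Genes were tested with limma on log2 signals and called at a Benjamini-Hochberg adjusted p of 0.05 over 14578 probe sets, each gene standing for its brightest probe set. Of the 40 genes, 9 were called (22.5%), 1 higher and 8 lower, where 25.9% of all 8965 tested genes were called, 13.1% higher and 12.8% lower. The median log2 difference of the 40 genes was -0.18, against -0.01 over all genes. The differences ran from -0.81 to 0.37 on the log2 scale, and 0 of the 40 genes reached 2-fold, which 6.56% of all genes did. For 19 of the 40 genes the 95% interval of the difference lay inside 1.5-fold either way, as it did for 51.7% of all genes. In such bulk samples, fewer cells of a type and less RNA per cell cannot be told apart.

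In derived cells most of these genes did not pass the test against GMP, and those called against L-GMP were mainly higher. Relative to GMP, 5 of the 40 genes were called (12.5%), 3 higher and 2 lower, against 24.1% of all genes, 13.4% higher and 10.7% lower. Their median log2 difference was 0.03 (0.00 over all genes), 0 genes reached 2-fold (6.59% of all genes), and 30 intervals lay inside 1.5-fold (52.9% of all genes). Relative to L-GMP, 14 of the 40 were called (35%), 12 higher and 2 lower in derived cells, against 30.7% of all genes, 16.6% higher and 14.1% lower. There the median was 0.16 (-0.00 over all genes), 0 genes reached 2-fold (7.96% of all genes), and 21 intervals lay inside 1.5-fold (49.2% of all genes). Each pair of comparisons shares the arrays of 1 group, so their values are set side by side and not counted as separate evidence.

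**Figure D1:**
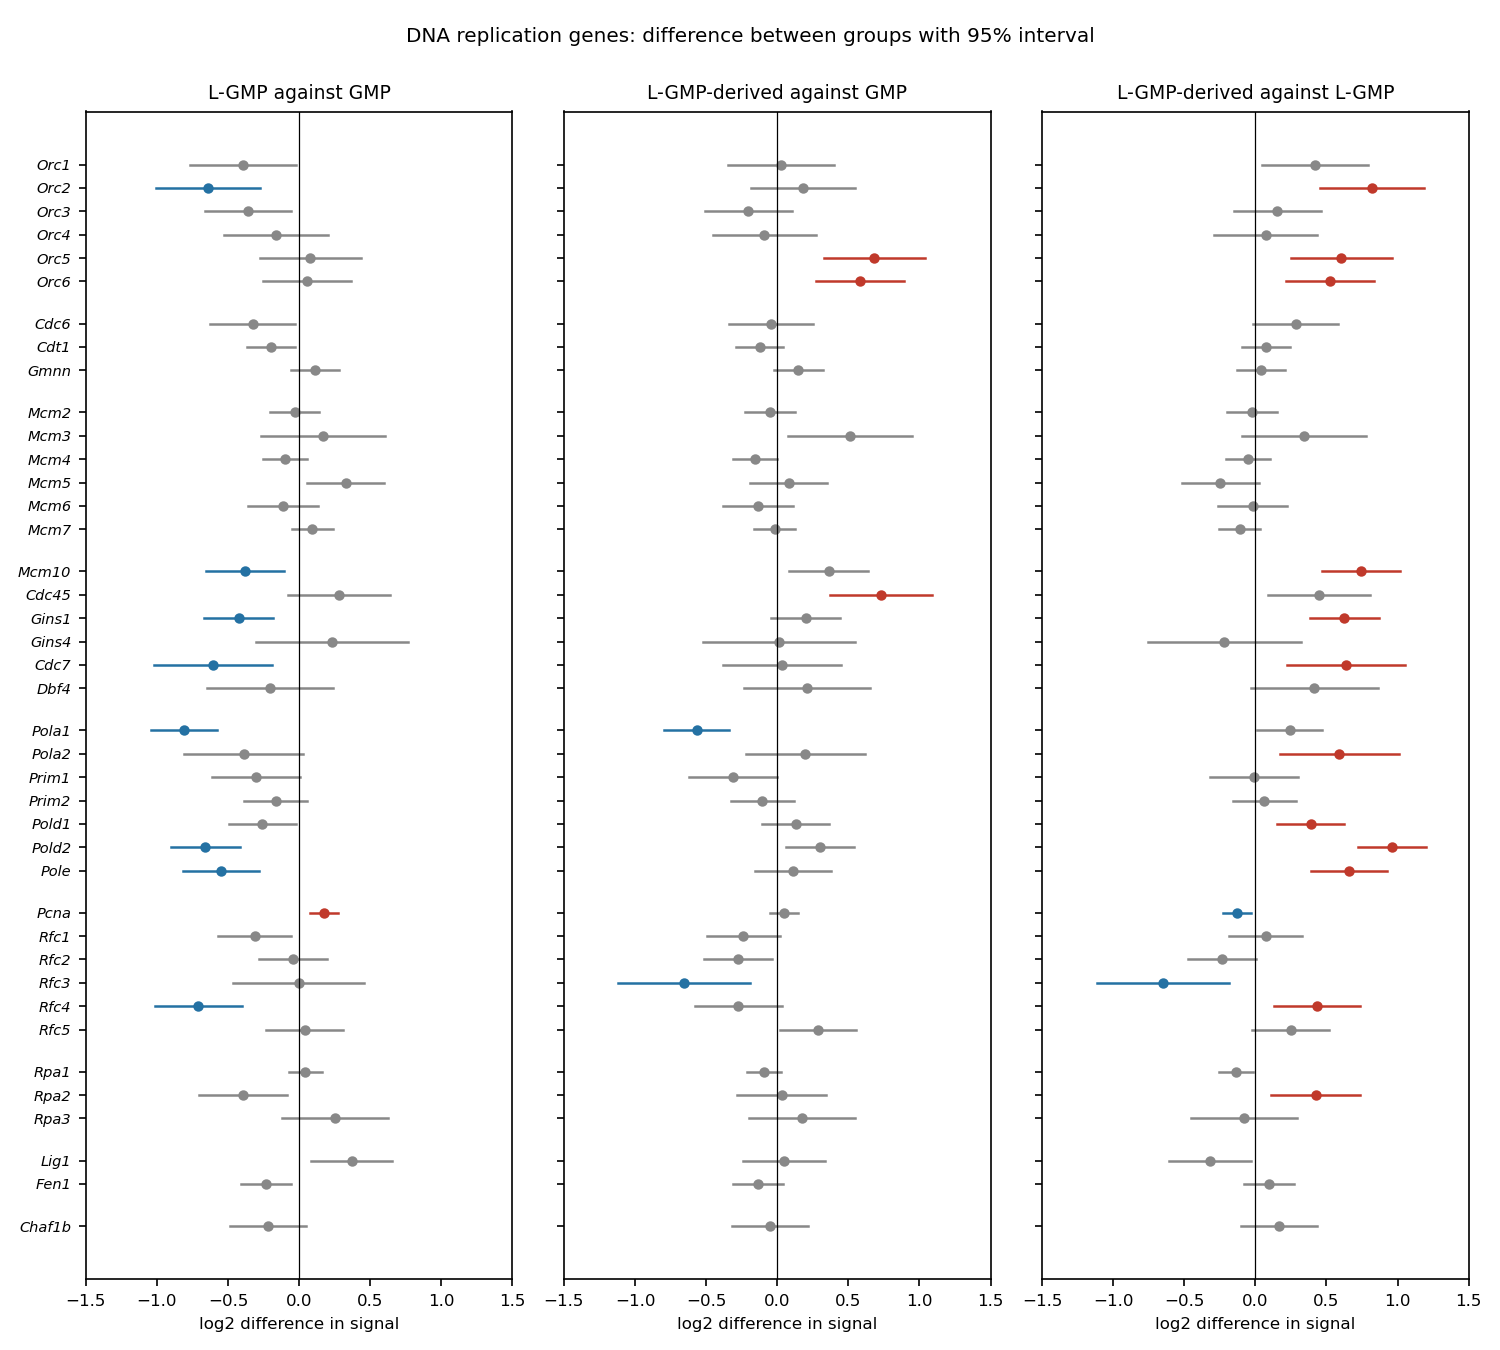
Log2 difference in signal (x axis) of each of the 40 genes (rows, grouped by role) in the 3 comparisons, with the 95% interval. Coloured points passed an adjusted p of 0.05, red higher and blue lower in the group named first. In the left panel 8 of 9 coloured genes lie below 0 and in the right panel 12 of 14 lie above it.

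Single arrays weighed on these counts, given here with the share of all genes called on the same arrays. The count for L-GMP against GMP was 4 without L-GMP replicate 3 (20.8% of all genes called), 5 without GMP replicate 3 (17.4%) and 16 without derived replicate 1 (33.9%), which enters only through the shared spread. Without that array, which stood apart from its group, the counts were 6 for derived cells against GMP (30.3% of all genes) and 13 for derived cells against L-GMP (38.2%). For derived cells against GMP it was 3 without GMP replicate 2 (16.8%) or 3 (15.7%). For derived cells against L-GMP it was 6 without L-GMP replicate 2 (23.7%) or derived replicate 2 (24.7%). It was 9 without L-GMP replicate 3 (25.2%) or any 1 GMP array (27.5% to 29.6%).

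Over the arrays, the typical replication gene was lowest on L-GMP replicates 2 and 3. The median deviation of the 40 genes from their own mean over the 9 arrays was 0.01, -0.15 and -0.22 (log2) on L-GMP replicates 1, 2 and 3. It was 0.06, 0.11 and 0.07 on the GMP arrays and 0.01, 0.11 and 0.04 on the derived arrays. L-GMP replicate 3 gave the lowest of the 9 signals for 14 of the 40 genes, replicate 2 for 10 and replicate 1 for 1. These deviations and counts were not taken over all genes. The median signal of all probe sets was 168, 157 and 161 on L-GMP replicates 1 to 3, and 158 to 163 on the other arrays. L-GMP had the lowest of the 3 group means for 21 of the 40 genes, and for 34.9% of all genes. The median SD within a group was 0.147 (log2) for the 40 genes and 0.173 over all genes.

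**Figure D2:**
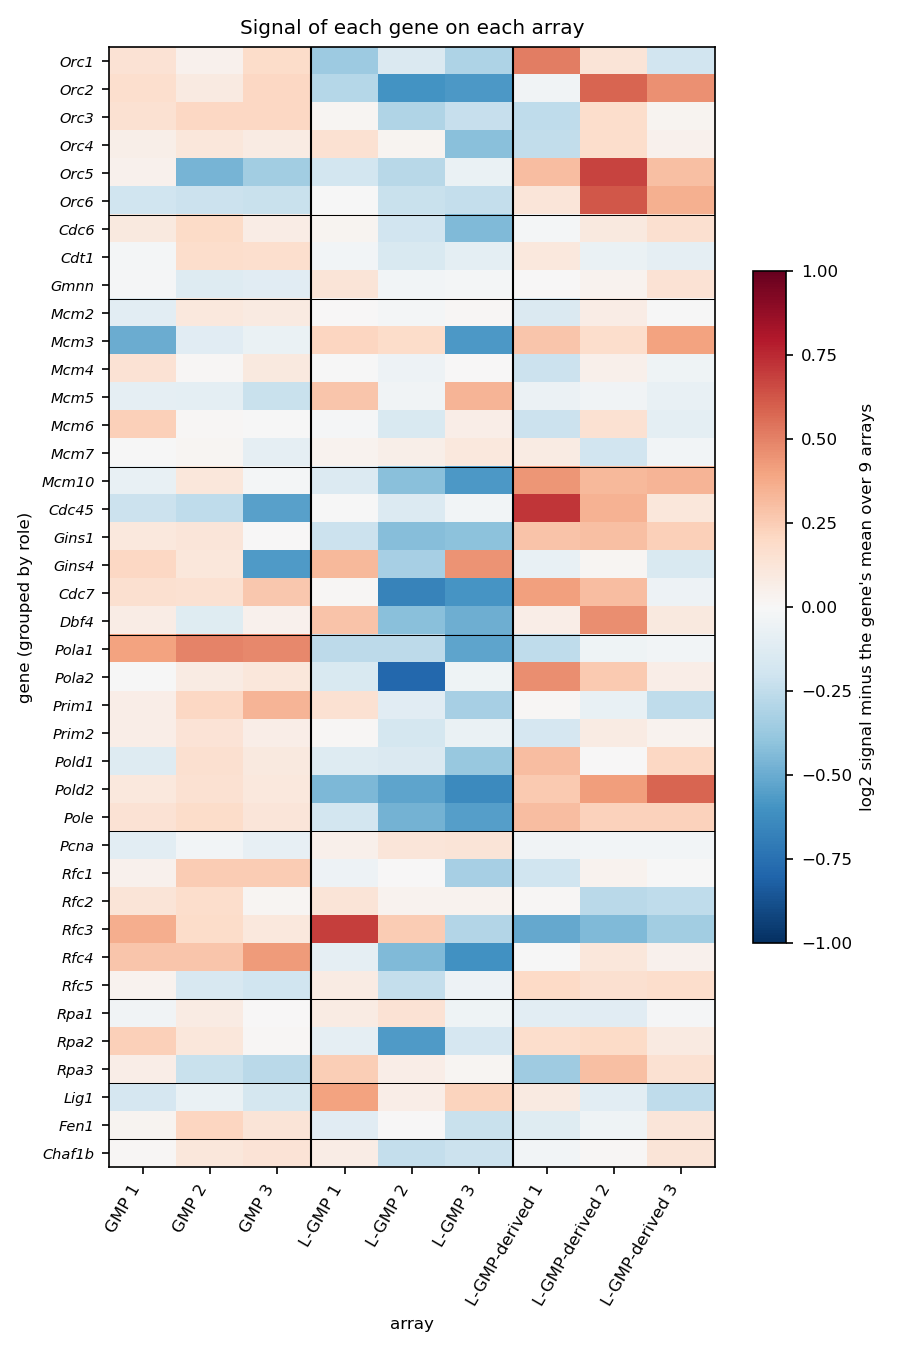
Log2 signal of each of the 40 genes (rows, grouped by role) on each of the 9 arrays (columns), as the difference from the gene's mean over the 9 arrays, in log2 units. Blue is lower and red higher, and blue is densest in the columns of L-GMP replicates 2 and 3, whose medians were -0.15 and -0.22.

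Some other measures of the arrays moved with L-GMP as well. The ratio of the 3' to the middle probe set of the beta-actin control, a measure of RNA integrity and labelling, was 2.0 to 2.57 on the L-GMP arrays, 2.86 to 3.19 on the derived arrays and 3.70 to 4.78 on the GMP arrays. Its 3' to 5' ratio was 4.87 to 5.56 in L-GMP, 6.93 to 7.18 in derived cells and 6.99 to 8.12 in GMP. By the Gapdh control, L-GMP overlapped derived cells in both ratios. The Gapdh 3' to 5' ratio was 6.17 to 11.6 in L-GMP, highest on replicate 3, 5.86 to 9.22 in derived cells and 7.08 to 8.77 in GMP. Its 3' to middle ratio was 1.80 to 1.90, 1.74 to 2.01 and 2.06 to 2.24 in the same order. The summed signal of 7 macrophage markers was 6672 to 8232 in L-GMP, 1143 to 2296 in derived cells and 1493 to 1598 in GMP. All 4 of those markers that passed the dim-signal threshold (Adgre1, Vcam1, Cd68 and C1qb) were called higher in L-GMP than in GMP (13.1% of all genes). That threshold had to be exceeded on 3 arrays, which the L-GMP arrays alone could supply, so this count is not independent of that entry. Mrc1 was at the floor on all 9 arrays. In derived cells against GMP the markers split, with 2 of the 4 called higher (13.4% of all genes) and 1 lower (10.7%). Their part in the differences of the replication genes was not tested. Sums for erythroid and megakaryocyte markers were 1456 to 1679 in L-GMP, 1319 to 1404 in derived cells and 1678 to 1873 in GMP. B cell marker sums were 3440 to 3562, 2962 to 3572 and 3220 to 3466 in the same order, and T and NK cell sums were 1287 to 1365, 1073 to 1254 and 1099 to 1289. The 10 GMP markers measured summed to 45235 to 46669 in GMP, 33067 to 40470 in L-GMP and 28880 to 32706 in derived cells, where Kit averaged 93.9 ± 23.5 (SD, n = 3) against 816 ± 41.7 in GMP and Cd34 lay below the floor of 62.4.

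A group of 7 genes, spread over 4 roles, was lower in L-GMP than in both GMP and derived cells by the test: Orc2, Mcm10, Gins1, Cdc7, Pold2, Pole and Rfc4. They are 17.5% of the 40 genes, and 6.07% of all genes had this pattern of calls. Both of those comparisons use the same L-GMP arrays. Within L-GMP, replicate 1 gave the highest signal for 7 of these 7 genes. Pold2 and Pole kept both calls under all 20 alternative settings of the analysis, while each of the other genes lost a call under some of them. A further 24 of the 40 genes (60%) were called in no comparison, as were 54.4% of all genes.

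**Figure D3:**
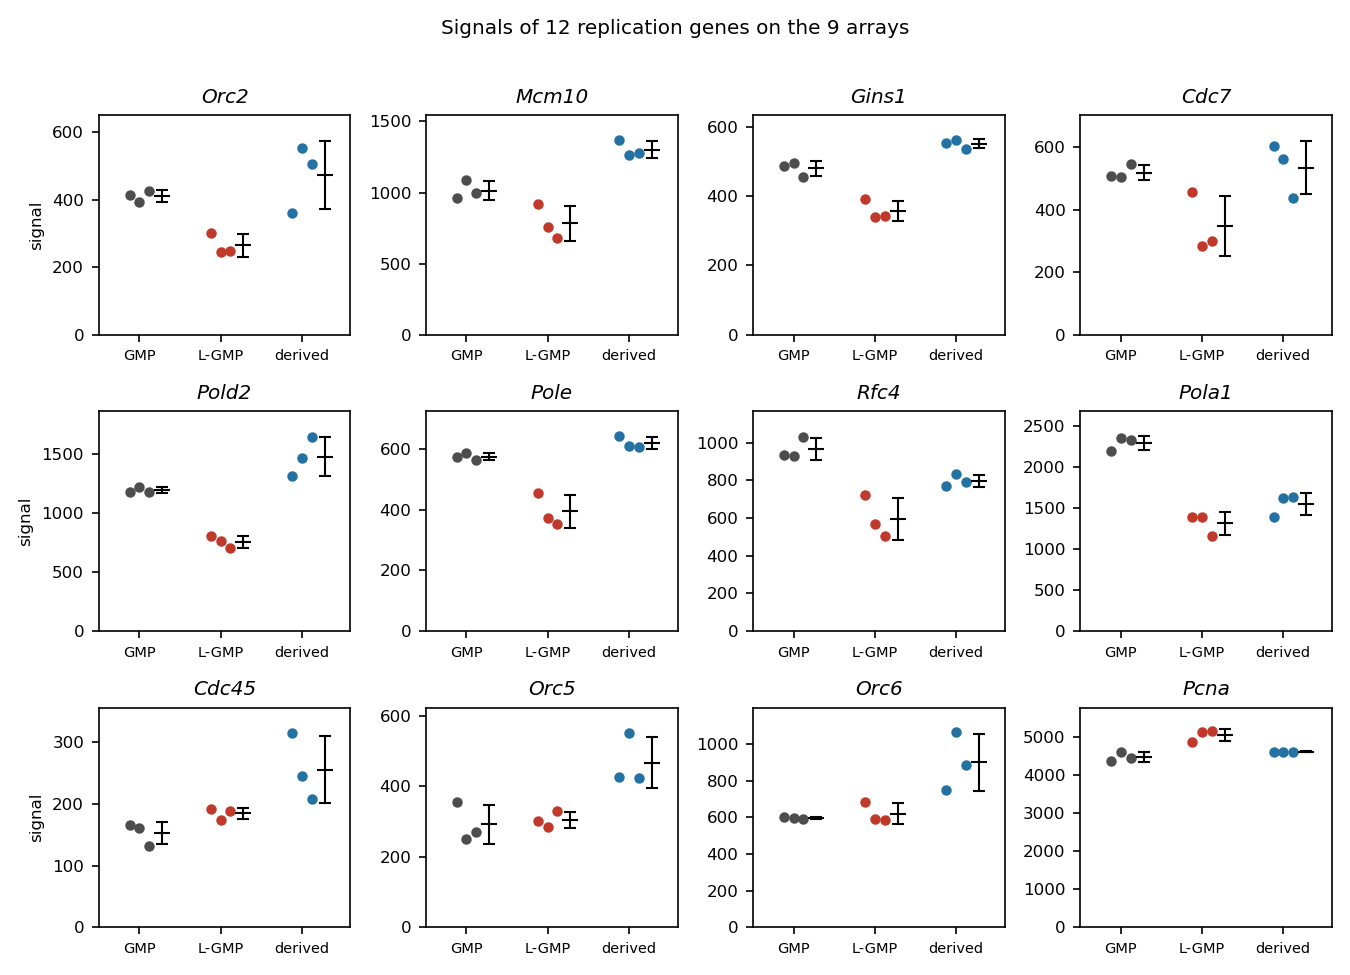
Deposited signal (y axis, linear scale from 0) of 12 replication genes on the 9 arrays, with a point per array and, beside it, the group mean and SD (n = 3). For Orc2, Mcm10, Gins1, Pold2, Pole and Rfc4 all 3 L-GMP points lie below all points of the other groups, while Pola1 is high in GMP alone and Cdc45 highest in derived cells.

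Of the 6 origin recognition genes, taken by their brightest probe sets, Orc5 and Orc6 were higher in derived cells than in GMP by the test. Orc2, Orc5 and Orc6 were higher in derived cells than in L-GMP. The complex to which they belong is the landing site for helicase loading. Orc2, a core subunit, gave signals of 416, 393 and 427 on GMP replicates 1 to 3, 303, 244 and 248 on the L-GMP arrays and 361, 554 and 507 on the derived arrays. All L-GMP values lay below all others, while derived replicate 1 lay below the GMP range and the other derived arrays above it. Orc2 was 1.56-fold lower in L-GMP than in GMP (log2 difference -0.64 ± 0.17 SE, adjusted p = 0.0159, limma) and 1.77-fold higher in derived cells than in L-GMP (0.82 ± 0.17 SE, adjusted p = 0.0038). The first call was lost without L-GMP replicate 2 or 3 or GMP replicate 3 (adjusted p = 0.0578, 0.0556 and 0.0639). A second Orc2 probe set (1418227_at) was also lower in L-GMP than in GMP (159 ± 23.8 against 307 ± 18.5, SD, n = 3), and the third (1418226_at) did not pass that test (136 ± 12.2 against 158 ± 10.7). All 3 were higher in derived cells than in L-GMP. Against GMP, only 1418226_at passed in derived cells (1.5-fold higher, adjusted p = 0.00707).

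Orc5, an ATP-binding subunit, gave 356, 249.9 and 271 on the GMP arrays, 303, 285 and 329 in L-GMP and 428, 551 and 424 in derived cells. The derived arrays lay above all others, and GMP and L-GMP overlapped. It was 1.61-fold higher in derived cells than in GMP (0.68 ± 0.16 SE, adjusted p = 0.0109) and 1.52-fold higher than in L-GMP (0.60 ± 0.16 SE, adjusted p = 0.0161). Omitting GMP replicate 2 or 3 ended the first call (adjusted p = 0.0523 and 0.0514) and omitting L-GMP replicate 2 or derived replicate 2 the second (0.0604 and 0.0603). Orc6, the smallest subunit, gave 599, 596 and 591 in GMP, 686, 590.4 and 585 in L-GMP and 750.2, 1064 and 884 in derived cells. Derived cells again lay above both other groups, by 1.49-fold over GMP (adjusted p = 0.0122) and 1.44-fold over L-GMP (adjusted p = 0.0162). The Orc6 call against L-GMP was lost without L-GMP replicate 2 or 3 or derived replicate 2 (adjusted p = 0.0596, 0.0541 and 0.0563).

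Orc1, Orc3 and Orc4 were called in no comparison by their brightest probe sets. Orc1, an ATPase subunit of the complex, averaged 139 ± 11.1 in L-GMP against 183 ± 8.82 in GMP (SD, n = 3, adjusted p = 0.113). Dimmer probe sets differed from the brightest ones. For Orc3, probe set 1416116_at was 1.97-fold lower in L-GMP than in GMP (257 ± 69.1 against 494 ± 46.3, adjusted p = 0.0166), where the brightest gave 497 ± 58.6 against 635 ± 13.4 (adjusted p = 0.0821). The same set was 1.94-fold higher in derived cells than in L-GMP (adjusted p = 0.0162), where the brightest and 1416115_at did not pass (0.445 and 0.36). For Orc4, probe set 1423337_at was 1.79-fold higher in derived cells than in L-GMP (adjusted p = 0.00303), where the brightest differed by 1.05-fold (adjusted p = 0.788).

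By their brightest probe sets, the licensing factors Cdc6 and Cdt1 and their inhibitor geminin (Gmnn) did not pass the test in any comparison. At an unadjusted p of 0.05, 2 of the 3 genes were below it in L-GMP against GMP and 0 in the other comparisons. Over all 40 genes there were 19 in L-GMP against GMP, 10 in derived cells against GMP and 19 in derived cells against L-GMP. No such count was made over all tested genes, of which 25.9%, 24.1% and 30.7% passed the adjusted threshold in the same order. Cdt1, which brings the helicase ring to origins, gave 3535, 4049 and 4035 in GMP, 3525, 3225 and 3357 in L-GMP and 3855, 3434 and 3375 in derived cells. L-GMP lay just below GMP with no overlap, by 1.15-fold (adjusted p = 0.0783), and derived cells overlapped both. A second Cdt1 probe set (1424144_at) pointed the other way, with signals of 286, 304 and 285 in GMP, 413, 321 and 441 in L-GMP and 474, 419 and 358 in derived cells. It lay above GMP without overlap in both other groups and passed for derived cells against GMP (1.42-fold higher, adjusted p = 0.0322). Cdc6, the loading ATPase, gave 678, 724 and 667 in GMP, 646, 553 and 465 in L-GMP and 624, 677 and 709 in derived cells. L-GMP was lowest without overlap with GMP (1.25-fold, adjusted p = 0.103). Geminin, which blocks Cdt1 after S phase begins, gave 2357, 2175 and 2199 in GMP, 2601, 2330.4 and 2343 in L-GMP and 2385, 2443 and 2636 in derived cells. Its groups differed by at most 1.11-fold, with adjusted p from 0.19 to 0.758.

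For the helicase ring, Mcm2 to Mcm7, no difference passed by the brightest probe sets, and probe sets of the same gene disagreed. With limma 0 of the 6 genes were called in each comparison. In L-GMP against GMP and in derived cells against GMP, 1 gene each had an unadjusted p under 0.05. In derived cells against L-GMP there were 0. Over all 40 genes these counts were 19, 10 and 19 in the same order, and none was made over all tested genes. Adjusted p of the 6 ring genes ran from 0.0751 to 0.81, 0.0864 to 0.87 and 0.163 to 0.918. In L-GMP against GMP the 95% intervals of the 6 genes reached from 1.28-fold lower to 1.52-fold higher.

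Mcm5 gave 648, 645 and 593 in GMP, 836, 672 and 872 in L-GMP and 664, 675 and 656 in derived cells. L-GMP lay above GMP without overlap, by 1.25-fold (0.33 ± 0.12 SE, adjusted p = 0.0751). Derived replicate 2, at 675, lay just above the lowest L-GMP array, and the other derived arrays below it. Mcm3 gave 1253, 1629 and 1684 in GMP, 2049.6, 2006 and 1189 in L-GMP and 2145, 1993 and 2328 in derived cells. Here L-GMP replicate 3 was the lowest of the 9 arrays and the other L-GMP arrays lay within the derived range, and derived cells were 1.43-fold above GMP (0.51 ± 0.20 SE, adjusted p = 0.0864). The brightest probe sets of Mcm4 and Mcm7 differed by at most 1.11-fold in any comparison.

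Dimmer probe sets of 3 ring subunits did pass in L-GMP against GMP. The brightest Mcm2 probe set (1434079_s_at) gave 2766, 3205 and 3169 in GMP, 2984, 2939 and 3000.0 in L-GMP and 2689.9, 3141 and 2977 in derived cells. The other Mcm2 probe set (1448777_at) gave 241, 339 and 286 in GMP, 506, 365 and 460.2 in L-GMP and 384, 404 and 328 in derived cells. The first overlapped in all groups (L-GMP 1.02-fold lower than GMP, adjusted p = 0.81), and the second was 1.54-fold higher in L-GMP than in GMP without overlap (0.62 ± 0.17 SE, adjusted p = 0.0193). For Mcm6, the brightest probe set (1438852_x_at) gave 2792, 2379 and 2362 in GMP, 2350.3, 2122 and 2479 in L-GMP and 2042, 2632 and 2209.9 in derived cells. Its second (1416251_at) gave 1441, 1389.5 and 1154 in GMP, 1673, 1559 and 2046 in L-GMP and 1604, 1482 and 1410.3 in derived cells. The brightest was 1.08-fold lower in L-GMP than in GMP with overlap (adjusted p = 0.496), and the second 1.32-fold higher without it (0.40 ± 0.13 SE, adjusted p = 0.0389). Of the 5 Mcm3 probe sets, 1426652_at was 1.39-fold higher in L-GMP than in GMP (363 ± 60.9 against 259 ± 8.57, adjusted p = 0.035) and the other four did not pass. In derived cells against GMP, 1420028_s_at of Mcm3 was 1.35-fold higher (adjusted p = 0.0357) and 1439269_x_at of Mcm7 was 1.19-fold lower (adjusted p = 0.0214). Names ending in _x_at or _s_at mark probe sets that can bind related transcripts, and the brightest sets of Mcm2, Mcm4, Mcm6 and Mcm7 are of that kind. For Mcm2 and Mcm6 the direction in L-GMP against GMP therefore depends on the probe set, from lower to higher when such sets are left out.

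**Figure D4:**
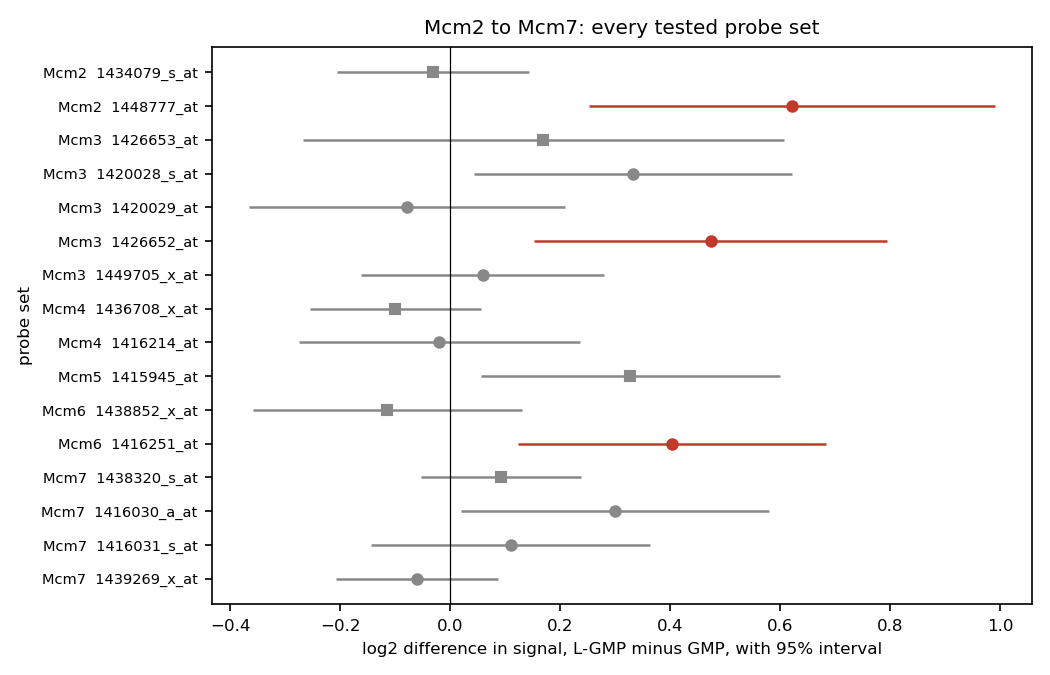
Log2 difference in signal, L-GMP minus GMP (x axis), with its 95% interval, for each tested probe set of Mcm2 to Mcm7 (rows). Squares mark the brightest probe set of a gene and red marks an adjusted p under 0.05. The 3 red points, 1 each for Mcm2, Mcm3 and Mcm6, are circles, at 0.40 to 0.62.

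Genes that turn the loaded ring into an active helicase were lower in L-GMP than in GMP in 3 of 6 cases (12.8% of all genes were called lower), and the same 3 were higher in derived cells than in L-GMP (16.6% of all genes were called higher). Mcm10, which helps fire the loaded helicase, gave 958, 1088 and 994 in GMP, 917, 755 and 678 in L-GMP and 1367, 1262 and 1277 in derived cells. The 3 groups did not overlap. Mcm10 was 1.67-fold higher in derived cells than in L-GMP (0.74 ± 0.12 SE, adjusted p = 0.00137), a call kept without each array in turn. It was 1.30-fold lower in L-GMP than in GMP (adjusted p = 0.0469), and that call was lost without any 1 of L-GMP replicates 2 and 3, derived replicates 2 and 3 or the GMP arrays, with adjusted p from 0.057 to 0.162.

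Gins1, a subunit of the GINS complex that couples helicase and polymerase epsilon, gave 488, 496 and 455 in GMP, 391, 339 and 342 in L-GMP and 554, 561 and 536 in derived cells. Here too the 3 groups were apart. It was 1.34-fold lower in L-GMP than in GMP (-0.43 ± 0.11 SE, adjusted p = 0.0155) and 1.54-fold higher in derived cells than in L-GMP (0.63 ± 0.11 SE, adjusted p = 0.00164). The first call was lost without L-GMP replicate 2 or 3 or GMP replicate 2 (adjusted p = 0.0562, 0.0519 and 0.064). Cdc7, the kinase that phosphorylates the ring, gave 506, 503 and 546 in GMP, 457, 285 and 301 in L-GMP and 602, 562 and 438 in derived cells. L-GMP lay below GMP throughout, and its replicate 1 overlapped derived replicate 3. Its differences were 1.52-fold lower than GMP (adjusted p = 0.0362) and 1.56-fold higher in derived cells than in L-GMP (adjusted p = 0.0258). Omitting L-GMP replicate 2 or 3 or any GMP array ended the first call (adjusted p 0.0786 to 0.127), and omitting L-GMP replicate 2 or 3 or derived replicate 1 or 2 ended the second (0.0535 to 0.103).

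Cdc45, the third part of the active helicase beside the ring and GINS, was highest in derived cells. Its signals were 165, 161 and 132 in GMP, 192, 175 and 188 in L-GMP and 314, 245 and 208 in derived cells. The 3 groups did not overlap, with GMP lowest. Derived cells were 1.66-fold above GMP (0.73 ± 0.16 SE, adjusted p = 0.0082), while L-GMP was 1.22-fold above GMP (adjusted p = 0.236). Dbf4, the activator of Cdc7, averaged 524 ± 164 in L-GMP, 588 ± 41.2 in GMP and 684 ± 109 in derived cells (SD, n = 3), with adjusted p of at least 0.149. Gins4 was dim, above the dim-signal threshold on 6 of 9 arrays, and averaged 119.8 ± 31.8 in GMP, 141 ± 37.3 in L-GMP and 118 ± 7.14 in derived cells.

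By brightest probe sets, the largest difference between derived cells and L-GMP among the 40 genes was that of Pold2, and the largest between L-GMP and GMP that of Pola1, both polymerase genes. Dimmer sets of Orc2 and Orc3, given above, differed by more between L-GMP and GMP (-0.96 and -0.98, against -0.81 for Pola1). The brightest sets of all 7 polymerase and primase genes had a lower mean log2 signal in L-GMP than in GMP, from -0.17 to -0.81. Of the 7, 3 passed the test, where 12.8% of all genes were called lower. Among the 40 genes, 13 had a positive difference, and the median over all genes was -0.0075. The share of all genes with a lower mean was not counted. Pola1, the catalytic subunit of polymerase alpha, gave 2202, 2354 and 2329 in GMP, 1393, 1394 and 1156 in L-GMP and 1398, 1619.8 and 1637 in derived cells. Both leukemic groups lay below GMP, and derived cells lay above L-GMP by all values. Pola1 was 1.75-fold lower in L-GMP than in GMP (-0.81 ± 0.10 SE, adjusted p = 0.000282) and 1.48-fold lower in derived cells than in GMP (-0.57 ± 0.10 SE, adjusted p = 0.00287). The 1.18-fold difference between derived cells and L-GMP did not pass (adjusted p = 0.108). Pola2, the second subunit of the enzyme, averaged 277 ± 11.4 in GMP, 216 ± 55.3 in L-GMP and 319 ± 43.7 in derived cells, 1.5-fold higher than in L-GMP (adjusted p = 0.0376). That call was lost without L-GMP replicate 2, derived replicate 1 or 2 or any GMP array (adjusted p 0.0535 to 0.109).

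Pold2, an accessory subunit of polymerase delta, gave 1181, 1223 and 1179 in GMP, 804, 761 and 706 in L-GMP and 1317, 1469 and 1645 in derived cells. The groups were fully apart, with L-GMP lowest and derived cells highest. It was 1.58-fold lower in L-GMP than in GMP (-0.66 ± 0.11 SE, adjusted p = 0.00139) and 1.95-fold higher in derived cells than in L-GMP (0.96 ± 0.11 SE, adjusted p = 0.000114). Pole, the catalytic subunit of polymerase epsilon, gave 572, 587 and 563 in GMP, 456, 373 and 353 in L-GMP and 641, 608 and 606 in derived cells. Its groups had the same order without overlap, 1.47-fold lower in L-GMP than in GMP (-0.55 ± 0.12 SE, adjusted p = 0.0071) and 1.58-fold higher in derived cells than in L-GMP (0.66 ± 0.12 SE, adjusted p = 0.00224). Each of the calls of Pola1, Pold2 and Pole named here was kept without each array in turn.

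The probe sets of Pold1, the catalytic subunit of polymerase delta, went in opposite directions. Probe set 1456055_x_at gave 2793, 3419 and 3279.6 in GMP, 2791, 2773 and 2358 in L-GMP and 3790.2, 3061 and 3537 in derived cells. Probe set 1448187_at gave 1134, 902 and 788 in GMP, 1062, 946 and 1314 in L-GMP and 993, 672 and 864 in derived cells. The first was 1.31-fold higher in derived cells than in L-GMP without overlap (adjusted p = 0.0185), and the second 1.32-fold lower with overlap (adjusted p = 0.139). In L-GMP the mean of the second was above that of GMP (log2 difference 0.24, adjusted p = 0.398). The call on the first was lost without L-GMP replicate 3 or derived replicate 3 (adjusted p = 0.0688 and 0.0602). The primase genes Prim1 and Prim2, which make the RNA primers, were called in no comparison by their brightest probe sets, with log2 differences from -0.31 to 0.06. A dimmer Prim2 probe set (1418036_at) was 1.36-fold lower in derived cells than in GMP (454 ± 52.6 against 617 ± 67.9, adjusted p = 0.0379).

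In the clamp and its loader, the members moved in different directions. Pcna, the sliding clamp, gave 4373, 4616 and 4448 in GMP, 4881, 5137 and 5158 in L-GMP and 4604, 4628 and 4628 in derived cells. L-GMP lay above both other groups by a small step, 1.13-fold above GMP (0.18 ± 0.04 SE, adjusted p = 0.0143) and 1.09-fold above derived cells (adjusted p = 0.0467). The call against GMP was lost when L-GMP replicate 2 or 3 or GMP replicate 1 or 3 was left out (adjusted p 0.0503 to 0.0565) and when arrays were scaled by quantiles or to one median (0.0748 and 0.108). The call against derived cells was lost in 13 of 20 alternatives. Rfc4, a small subunit of the loader, gave 932, 931 and 1032 in GMP, 719.7, 567 and 504 in L-GMP and 768, 832 and 791 in derived cells. L-GMP was lowest, then derived cells, then GMP, with no overlap. Rfc4 was 1.63-fold lower in L-GMP than in GMP (-0.71 ± 0.14 SE, adjusted p = 0.00367) and 1.35-fold higher in derived cells than in L-GMP (adjusted p = 0.0366). These values come from a probe set open to shared binding (1438161_s_at), and the other one (1424321_at) gave 345 ± 17.1 in GMP, 326 ± 45.2 in L-GMP and 351 ± 22.5 in derived cells (adjusted p = 0.658 in L-GMP against GMP). The call against derived cells was lost without L-GMP replicate 2 or 3, derived replicate 2 or 3 or any GMP array (adjusted p 0.0523 to 0.125).

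Rfc3, another small subunit, had its lowest signals in derived cells by its brighter probe set (1432538_a_at), with 807, 714 and 675 in GMP, 1010.3, 747 and 511 in L-GMP and 439, 461 and 492 in derived cells. Derived cells lay below both other groups, and L-GMP spanned a range wider than GMP. The 1.57-fold difference passed against GMP (adjusted p = 0.0438) and against L-GMP (adjusted p = 0.0377), but each call was lost on leaving out most single arrays (adjusted p up to 0.129 and 0.112). The dimmer probe set (1423700_at) gave 111, 88.3 and 94.0 in GMP, 209.6, 143 and 172 in L-GMP and 152, 149 and 112 in derived cells. That set was 1.77-fold higher in L-GMP than in GMP without overlap (0.83 ± 0.18 SE, adjusted p = 0.00735), where the brighter one differed by 1.00-fold. Its GMP signals lay near or below the dim-signal threshold of 111. It entered the test through the L-GMP and derived arrays, where it was brighter, so its call is not independent of that entry. Rfc1, Rfc2 and Rfc5 were called in no comparison by their brightest probe sets, with log2 differences from -0.31 to 0.29. For Rfc1, the large subunit, probe set 1451920_a_at was 1.46-fold higher in derived cells than in L-GMP (1081 ± 38.4 against 740.4 ± 61.5, adjusted p = 0.0029).

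Replication protein A covers the single-stranded DNA that the helicase exposes. Rpa2, its middle subunit, gave 589, 539 and 504 in GMP, 470.0, 337 and 444 in L-GMP and 564, 570.0 and 531 in derived cells. L-GMP was lowest without overlap, 1.32-fold below GMP (adjusted p = 0.064) and 1.34-fold below derived cells (adjusted p = 0.0431). The latter call was lost without any 1 array except L-GMP replicate 1 (adjusted p 0.0542 to 0.154). Rpa1, the large DNA-binding subunit, gave 7401, 8051 and 7612 in GMP, 8044, 8393 and 7375 in L-GMP and 7058, 7024 and 7553 in derived cells by its brightest probe set. These ranges overlapped between GMP and each other group, and no test passed (adjusted p from 0.0774 to 0.587). A dimmer Rpa1 probe set (1423293_at) was 1.43-fold higher in derived cells than in GMP (1139.8 ± 78.9 against 799 ± 39.0, adjusted p = 0.00846). Rpa3, the small subunit, averaged 979.5 ± 127 in GMP, 1163 ± 97.1 in L-GMP and 1118 ± 249 in derived cells, with adjusted p of at least 0.314.

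The genes that finish the lagging strand differed in direction, and 0 of the 2 passed the limma test in each comparison. At an unadjusted p of 0.05 the counts were 2 in L-GMP against GMP, 0 in derived cells against GMP and 1 in derived cells against L-GMP. Over all 40 genes they were 19, 10 and 19 in the same order, and none was made over all tested genes. Lig1, the ligase that seals nicks, gave 609, 653 and 605 in GMP, 903, 719 and 799 in L-GMP and 728, 636 and 575 in derived cells. L-GMP lay above GMP throughout (1.29-fold, adjusted p = 0.0601), and derived cells overlapped both. Fen1, the nuclease that trims the primer flap, gave 4810.4, 5469 and 5143 in GMP, 4362, 4734 and 4041 in L-GMP and 4338, 4579 and 5134 in derived cells. L-GMP lay below GMP throughout (1.17-fold, adjusted p = 0.0533) by this probe set, which is open to shared binding (1436454_x_at). The other Fen1 probe set (1421731_a_at) gave 259.9, 216 and 238 in GMP, 289, 184 and 255 in L-GMP and 274, 374 and 316 in derived cells. There L-GMP spanned the GMP range (adjusted p = 0.986), and derived cells lay above GMP without overlap (1.34-fold, adjusted p = 0.114). Chaf1b, a subunit of the chromatin assembly factor that places histones behind the fork, gave 292, 313 and 318 in GMP, 304, 245 and 248 in L-GMP and 283, 291 and 316 in derived cells. Its groups overlapped, with adjusted p from 0.221 to 0.789 and 0 comparisons with an unadjusted p under 0.05.

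Counted over all 67 tested probe sets of the 40 genes, 5 were higher and 10 lower in L-GMP than in GMP, where 25.9% of all probe sets were called. In derived cells, 8 were higher and 4 lower than in GMP (24.4% of all probe sets called), and 18 were higher and 2 lower than in L-GMP (29.9% called). Of the 17 genes with at least 2 tested probe sets, 0 had calls in opposite directions in any comparison. In 7, 8 and 6 of them, in the same order of comparisons, some probe sets were called and others not.

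Other genes of the replication fork also split in direction. Of 25 tested fork factors outside the 43, 5 were higher and 6 lower in L-GMP than in GMP (44% called, against 25.9% of all genes). In derived cells 6 were higher and 1 lower than in GMP (28%, against 24.1%), and 8 higher and 2 lower than in L-GMP (40%, against 30.7%). Exo1, a nuclease of replication and repair, was 1.89-fold lower in L-GMP than in GMP (539 ± 117 against 1003 ± 42.6, SD, n = 3, adjusted p = 0.003). Pole3, a histone-fold subunit of polymerase epsilon, was 1.82-fold lower (adjusted p = 0.00171). Asf1b, a histone chaperone, was 1.72-fold higher (1564 ± 247 against 901.6 ± 18.9, adjusted p = 0.00129) and Pold4, the smallest polymerase delta subunit, 1.63-fold higher (adjusted p = 0.00131).

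Of 21 tested genes of the G1/S switch, 2 were called in L-GMP against GMP (9.52%, against 25.9% of all genes), both lower, namely Skp2, a ubiquitin ligase subunit, and Cks1b, its partner (1.35-fold and 1.14-fold). In derived cells 1 was higher (E2f6) and 1 lower (Cks1b) than in GMP (9.52%, against 24.1% of all genes), and 3 were higher (Rrm1, Skp2 and Ccna2) and 1 lower (E2f8) than in L-GMP (19%, against 30.7%). In the replication checkpoint and repair list, 6 of 10 tested genes were called in L-GMP against GMP (60%, against 25.9% of all genes), all 6 of them lower (12.8% of all genes). Chek1, the kinase that restrains S phase after fork damage, was 1.90-fold lower (770.1 ± 165 against 1446 ± 121, adjusted p = 0.00264), Hus1 1.77-fold, Brca2 1.60-fold and Ung 1.48-fold. In derived cells, 2 of the 10 (Ung and Msh6) were called against GMP (20%, against 24.1% of all genes), both lower (10.7% of all genes). Against L-GMP 3 (Hus1, Brca2 and Chek1) were called in derived cells (30%, against 30.7%), all higher (16.6% of all genes).

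Of 15 mitosis genes tested, 4 were called in L-GMP against GMP (26.7%, against 25.9% of all genes). All 4 of them were higher, as were 13.1% of all genes. Aurka, the spindle pole kinase, was 1.67-fold higher (828.9 ± 170 against 492.8 ± 46.4, adjusted p = 0.0042), and Ccnb2, a mitotic cyclin, 1.64-fold higher. Bub1b and Mki67, the proliferation marker, were 1.43-fold and 1.29-fold higher. In derived cells 6 of the 15 were called against GMP (40%, against 24.1% of all genes). All of them were higher (13.4% of all genes), with Aurka at 2.25-fold (adjusted p = 0.000279). Against L-GMP 4 were called (26.7%, against 30.7% of all genes), again all higher (16.6% of all genes).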

How the data were processed

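Per the labels' protocols, total RNA of sorted cells was labelled with biotin for Affymetrix arrays. The authors deposited a linear intensity for every probe set, made with MAS5 (version 5) per the submitters' processing notes; for the summary method, background correction and scaling, the sources used here give nothing. Of the 22690 probe sets' values, 0.939% were negative (lowest -1890.55), which MAS5's own signal method does not give. Array trimmed means lay within 4.02% of their mean, so no rescaling was made.

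Signals were raised to a floor of 62.4, the 25th percentile, before log2, so differences of dim genes are understated. After 64 control probe sets were left out, 14578 probe sets that exceeded 111 (percentile 40) on 3 or more arrays were tested with limma 3.58.1 in R 4.3.3 (lmFit, contrasts.fit and eBayes with trend, two-sided, all 9 arrays, 6 residual degrees of freedom), with Benjamini-Hochberg adjustment per comparison. The fit was tested on simulated data. The number of arrays limits the precision. Gene names are those of the platform annotation (20393 probe sets with 1 symbol, 691 with several, 1606 with none listed), and 20364 matched RefSeq. The probe set with the highest mean log2 signal stands for the gene. Folds are between mean log2 signals. Values are given in the order of replicates 1 to 3; 1 GMP array has an unnumbered title and is replicate 1 here.

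Signals on all arrays are printed for the genes of smallest adjusted p per role and comparison, those called in opposite directions in 2 comparisons and those whose probe sets disagree; of other lists, up to 4 members of largest change among those called. Genes, lists and rules were chosen with earlier results of these data known. Alternatives covered scaling, floor, filter, trend, arrays in the fit, array weights, probe set choice, the replicate number as a block and leaving out arrays.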

Additional observations from a re-analysis of the deposited data

How the results depend on the processing

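Of the 28 calls on single genes, 11 were kept under each of 20 alternatives (Pola1 in both comparisons with GMP, Pold2 and Pole in both comparisons with L-GMP, Cdc45 and Orc6 in derived cells against GMP, and Gins1, Mcm10 and Orc2 in derived cells against L-GMP), and 17 were lost under at least 1. The number of genes called in L-GMP against GMP was 4 to 16 when each array was left out in turn, 19 with array weights and 9 as reported. In derived cells against GMP it was 3 to 7 on leaving out arrays, 8 with quantile normalization and 17 with array weights, against 5. In derived cells against L-GMP it was 6 to 15 on leaving out arrays, 8 with no filter on dim probe sets and 7 with the 6 arrays of the comparison alone, against 14. With no filter, 12393 genes were tested rather than 8965. With the 6 arrays alone, the counts were higher in the other comparisons, 12 in L-GMP against GMP and 7 in derived cells against GMP. The cause of these changes was not tested. The median log2 difference in L-GMP against GMP was -0.0865 with probe sets averaged per gene and -0.066 without probe sets of shared binding, against -0.18; in derived cells against L-GMP it was 0.10 to 0.26 on leaving out arrays, against 0.16. Without probe sets of shared binding, Mcm2 and Mcm6 in L-GMP against GMP turned to 0.62 and 0.40 (adjusted p = 0.0197 and 0.0395) and Pold1 in derived cells against L-GMP to -0.40 (adjusted p = 0.14). With probe sets averaged, Pold1 turned to -0.0044 (adjusted p = 0.983). Over all genes, 4227 were called in derived cells against GMP with array weights, against 2157, and 1508 and 1411 without GMP replicates 2 and 3; in L-GMP against GMP 1557 were called without GMP replicate 3, against 2326. With the replicate number as a block, 8, 4 and 10 genes were called. The labels state no pairing by number. Deviations of same-numbered arrays correlated at -0.31 to 0.17 and those of different-numbered arrays at -0.185 to 0.30. These deviations were centred within groups of 3 arrays, so the ranges cannot settle whether the arrays are paired. The block is given as a check alone. Signals have no detection calls, so nearness to the floor is the only measure of background.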
